A study of Mus musculus with 44 samples.

Results

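The collagen genes were taken as every row of a count table of gene start sites whose gene ID has a mouse symbol made of Col, 1 or 2 digits, a and 1 or 2 digits. This rule found 44 of the 27095 rows, which are all 44 collagen symbols of the mouse reference. It used names and no measured value. The table comes from chromatin immunoprecipitation and sequencing (ChIP-seq) of HPC7 cells, a mouse blood progenitor line grown with stem cell factor. The methylation of histone H3 at lysine 4 was measured in cells that carried Snai1, a zinc finger repressor known from the loss of epithelial identity.

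The 3 constructs were wild-type Snai1 (WT), Snai1 with the substitution F5A (MUT), which weakens its contact with the demethylase Lsd1, and the vector with no gene (EV). All cells carried the same retroviral vector with a GFP marker, were sorted for GFP 1 week after transduction and were then expanded. Each construct had 3 libraries of dimethylation (H3K4me2) and 3 of monomethylation (H3K4me1), and an IgG control was made 2 times from WT cells only. Snai1 itself was immunoprecipitated in 4 technical replicates per construct and given as 1 peak list for each. The labels number the methylation replicates without stating whether they are separate transductions or cultures, so p-values measure the spread between libraries, which may be technical.

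Collagens are the triple-helical proteins of the extracellular matrix. Fibrillar types give tissues tensile strength, type IV forms the sheet of basement membranes, FACIT collagens sit on fibril surfaces and transmembrane types stay anchored in the cell that makes them. Fibroblasts, bone and cartilage cells, epithelia and endothelia make most of them, and several are classical targets switched on when cells take a mesenchymal fate. H3K4me2 and H3K4me1 mark active or poised promoters and enhancers, with H3K4me1 relatively more frequent at enhancers and poised sites.

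Promoter sequences of 5 collagen genes are shown for orientation, and no test reported here uses them. They are the 250 bases before the RefSeq start in GRCm38.p6, given 5′ to 3′ on the gene's strand, and at Col23a1, Col16a1 and Col11a2 the RefSeq gene begins within them. Col17a1 lies at chr19:47692043-47692292 (minus strand) and had the highest H3K4me1 of the family, and Col23a1 at chr11:51289670-51289919 (plus strand) the highest H3K4me2. Col8a1 at chr16:57754738-57754987 (minus) and Col16a1 at chr4:130047590-130047839 (plus) carried both marks and hold the E-box that Snail factors bind. Col11a2 at chr17:34038888-34039137 (plus) was the 1 collagen gene with a WT Snai1 peak near an end. Capitals mark the E-box, CAGGTG or its reverse complement CACCTG, searched on both strands.
Col17a1: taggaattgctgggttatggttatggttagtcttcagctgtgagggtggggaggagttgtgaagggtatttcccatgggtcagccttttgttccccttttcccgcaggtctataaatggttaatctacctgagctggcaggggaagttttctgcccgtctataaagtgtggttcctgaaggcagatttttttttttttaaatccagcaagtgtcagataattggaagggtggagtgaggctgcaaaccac
Col23a1: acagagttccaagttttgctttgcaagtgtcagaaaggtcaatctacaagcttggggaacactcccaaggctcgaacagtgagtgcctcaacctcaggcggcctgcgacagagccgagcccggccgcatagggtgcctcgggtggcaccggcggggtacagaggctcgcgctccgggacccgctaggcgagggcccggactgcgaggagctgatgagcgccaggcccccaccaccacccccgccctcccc
Col8a1: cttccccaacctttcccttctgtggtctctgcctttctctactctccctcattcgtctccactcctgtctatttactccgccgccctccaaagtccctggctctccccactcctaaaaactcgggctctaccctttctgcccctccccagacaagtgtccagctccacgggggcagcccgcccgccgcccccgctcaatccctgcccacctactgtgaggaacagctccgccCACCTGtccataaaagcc
Col16a1: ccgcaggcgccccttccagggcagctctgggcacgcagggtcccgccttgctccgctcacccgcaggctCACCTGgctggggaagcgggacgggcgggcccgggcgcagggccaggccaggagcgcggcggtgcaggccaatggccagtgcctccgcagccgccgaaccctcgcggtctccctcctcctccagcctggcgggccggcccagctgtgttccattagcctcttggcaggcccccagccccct
Col11a2: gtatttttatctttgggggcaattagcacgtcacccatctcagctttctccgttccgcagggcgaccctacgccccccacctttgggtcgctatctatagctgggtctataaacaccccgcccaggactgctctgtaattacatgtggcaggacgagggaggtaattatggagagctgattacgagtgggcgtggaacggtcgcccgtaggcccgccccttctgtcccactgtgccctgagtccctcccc

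RefSeq promoters were found for 35 of the 44 genes, 38 in all, each of 300 bases (250 before and 50 after the start). The E-box stood in 5 of these 38 promoters (13.2%), against 20.2% of the 32813 promoters of other genes. Besides Col8a1 and Col16a1 these were the promoters of Col4a4, Col6a5 and Col9a2. A match is only a match of letters, and its absence from the other promoters says nothing about binding. The rest of the 5 kb windows was not searched. Collagen promoters had a median GC content of 59.8%, against 52.7% in other genes, and a median of 11.5 CpG dinucleotides, against 7. Of the 5 genes with a printed sequence, Col17a1 has the lowest CpG count over the 300 bases, with 5 CpG and 46.3% GC. Over the same length Col11a2 has 16 CpG and Col16a1 and Col23a1 have 24 each. The printed 250 bases leave out the last 50.

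All 44 collagen windows had enough reads to be tested in every comparison. The windows span 5 kb around the start site, as the name of the deposited table states. Each gene has 1 row of counts. Col18a1, Col9a1 and Col6a2 have more than 1 RefSeq start, and which start the counts cover is not given. An unmarked window may therefore miss a start in use. Library totals ran from 8694515 to 18199945 counts for H3K4me2 and from 4042976 to 8813537 for H3K4me1, and were 3355479 and 2714255 for IgG. The median collagen window held 31 to 80 counts per H3K4me2 library and 31 to 69 per H3K4me1 library. The Snai1 window itself held 41.1 ± 8.99 H3K4me2 CPM in WT, 40.7 ± 11.0 in MUT and 29.7 ± 5.03 in EV (SD, n = 3 each), where vector cDNA can add reads. Replicate 1 stood apart from replicates 2 and 3 in every construct. The variance between libraries was 9.49 to 17.7 times the counting variance in the 12 pairs that include replicate 1, and 0.980 to 2.3 times in the 6 pairs of replicates 2 and 3. H3K4me1 replicates 2 and 3 of EV agreed within counting error and count as 1 sample, so n = 2 in that group.

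Which collagen start sites carry H3K4 methylation in progenitor cells was asked first. Most did not stand out from silent genes. The level of a window is given as enrichment, the log2 ratio of its CPM (counts scaled to 1e6 per library) over the mean IgG CPM. From it the median of that value over olfactory and vomeronasal receptor genes in the same library was subtracted. These genes are silent in blood cells, and 1395 of their 1482 windows, those with at least 20 IgG counts, were used. A window was called marked when its enrichment lay above the silent families' 95th percentile in all 9 libraries of a mark. Of the 44 collagen windows 7 (15.9%) were marked with H3K4me2, where 52.1% of all 26087 windows were, and 1.51% of the silent families. With H3K4me1 9 (20.5%) were marked, against 56.7% of all windows and 2.94% of the silent families. The median collagen enrichment was -0.02 in H3K4me2 and 0.45 in H3K4me1, against 1.75 and 2.58 over all windows. On this scale, which divides by IgG, the median collagen window lay at the level of silent receptor genes in H3K4me2. In H3K4me2 CPM it lay higher, with library medians of 3.15 to 5.71 against 1.37 to 2.95 in the silent families. In H3K4me1 they were 6.18 to 9.01 against 1.48 to 4.09. IgG was also higher at collagen windows, at 41.6 to 44 CPM against 17.3 to 28.4, and its part in the enrichment was not tested. By the same rule 14 of 15 blood progenitor markers were marked in each mark (all but Erg), and 5 of 17 fibroblast and mesenchymal markers, beside the 52.1% and 56.7% of all windows. Since IgG came from WT cells only, enrichment in MUT and EV libraries rests on the IgG of WT cells.

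The 7 windows marked in both marks belong to Col11a2, Col14a1, Col16a1, Col17a1, Col18a1, Col23a1 and Col8a1, and H3K4me1 adds Col7a1 and Col8a2. A further 7 windows passed the silent families' percentile in some H3K4me2 libraries, namely Col13a1, Col1a1, Col1a2, Col5a2, Col6a5, Col8a2 and Col9a2. In H3K4me1 the 7 such windows were Col1a1, Col1a2, Col20a1, Col5a2, Col6a5, Col9a2 and Col9a3. The other 30 windows in H3K4me2 and 28 in H3K4me1 passed it in 0 libraries. The 7 genes come from 5 structural classes, Col7a1 adds a sixth in H3K4me1, and neither type IV nor type VI has a marked member.

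**Figure D1:**
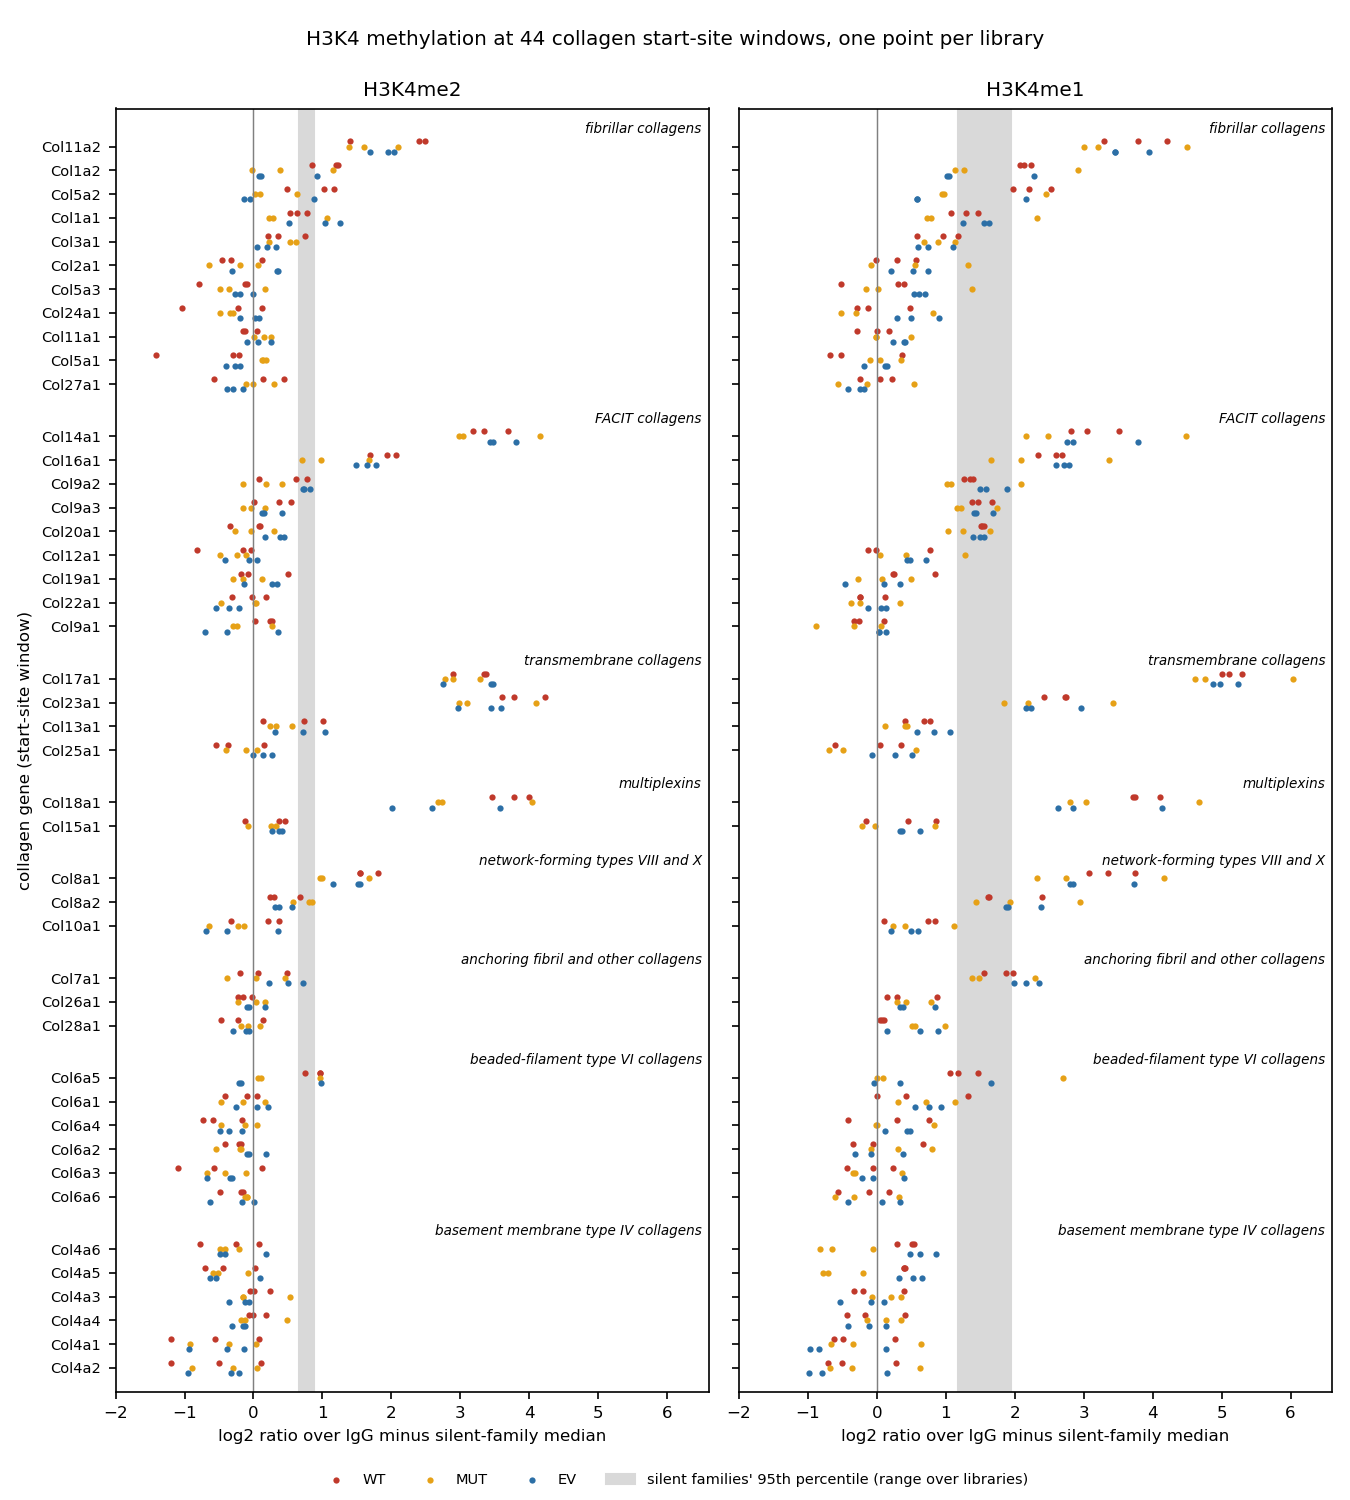
Enrichment (log2 ratio over IgG minus the silent-family median) of each of the 44 collagen windows by structural class, with H3K4me2 on the left and H3K4me1 on the right. Each point is 1 library, coloured by construct, and the grey band is the range over libraries of the silent families' 95th percentile. Col17a1, Col18a1, Col14a1 and Col23a1 stand far to the right of the band in H3K4me2, while type IV and most type VI windows scatter around 0.

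Transmembrane collagens held the highest value of the family in each mark. Col17a1, the hemidesmosome collagen that anchors epithelial cells to the basement membrane (gene on chromosome 19, 47646341 to 47692042), had H3K4me1 CPM of 152.9, 153.8 and 157.5 in WT, 169.5, 164.3 and 160.0 in MUT and 143.2, 165.0 and 159.3 in EV libraries. IgG gave 32.8 and 41.6 CPM, so every H3K4me1 library lay far above both controls. Its mean H3K4me1 enrichment was 5.10 (range 4.62 to 6.04 over 9 libraries), rank 84 of 26087 windows, with 0.318% of windows above it. In H3K4me2 the same window had 21.8, 24.9 and 29.3 CPM in WT, 22.5, 32.7 and 34 in MUT and 19.9, 35.6 and 38.4 in EV, an enrichment of 3.14 (2.75 to 3.47) that 44% of windows exceeded. It stood near the top of the genome's start sites in 1 mark and close to the middle in the other.

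Col23a1, a transmembrane collagen that is shed from the cell surface (chromosome 11, 51289679 to 51583925), showed the opposite balance. Its H3K4me2 CPM were 53.3, 60.5 and 47.2 in WT, 53.0, 54.8 and 48.1 in MUT and 47.7, 46.8 and 36.9 in EV, so the 3 constructs were close together. Its H3K4me1 CPM were 39.4, 35.0 and 35.0 in WT, 37.0, 32.1 and 35.9 in MUT and 39.4, 31.3 and 33.8 in EV. The enrichment was 3.54 in H3K4me2 and 2.52 in H3K4me1. The other transmembrane members were low, Col13a1 with 0.57 in H3K4me2 and 0.59 in H3K4me1 and Col25a1 with -0.09 in H3K4me2 and -0.01 in H3K4me1.

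Col18a1, a multiplexin of basement membranes whose end is cleaved to endostatin (chromosome 10, 77052178 to 77166530), reached 3.21 in H3K4me2 and 3.52 in H3K4me1. Its H3K4me1 CPM were 67.1, 76.4 and 72.0 in WT, 73.8, 52.2 and 54.2 in MUT and 74.8, 42.6 and 37.6 in EV, against 43.8 and 39.8 in IgG. The H3K4me2 values of Col18a1 are given with the constructs below. Col15a1, the other multiplexin, stayed at 0.25 in H3K4me2 and 0.34 in H3K4me1.

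Among the 9 FACIT collagens Col14a1 and Col16a1 were marked. Col14a1, which binds fibril surfaces (chromosome 15, 55307644 to 55520803), had H3K4me2 CPM of 43.4, 28.2 and 30.4 in WT, 47.6, 43.6 and 43.6 in MUT and 48.0, 41.1 and 43.8 in EV. Its enrichment was 3.45 in H3K4me2 and 3.10 in H3K4me1. Col16a1, a FACIT of skin and cartilage (chromosome 4, 130047817 to 130099277), lay at 1.55 in H3K4me2 and 2.54 in H3K4me1. The 3 chains of type IX, which coat cartilage fibrils, stood at -0.05 (Col9a1), 0.46 (Col9a2) and 0.18 (Col9a3) in H3K4me2, and Col9a2 and Col9a3 both at 1.46 in H3K4me1. Col20a1 had 0.09 in H3K4me2 and 1.44 in H3K4me1, and Col12a1, Col19a1 and Col22a1 lay between -0.25 and 0.04 in H3K4me2. The FACIT median was 0.09 in H3K4me2 and 1.44 in H3K4me1.

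Of the 11 fibrillar collagens Col11a2, a chain of the cartilage fibril type XI (chromosome 17, 34038919 to 34066684), was the 1 marked window. Its H3K4me1 CPM were 72.6, 120.0 and 112.3 in WT, 96.6, 88.4 and 90.5 in MUT and 96.6, 94.9 and 97.9 in EV, against 78.1 and 44.9 in IgG. Replicate 1 of WT lay below IgG replicate 1, and the other 8 H3K4me1 libraries lay above both controls. The start of Rxrb, a nuclear receptor gene, lies 6788 bp away, and the Rxrb window carried 143.4 to 167.8 H3K4me2 CPM in WT. Whether reads of Rxrb reach the Col11a2 window was not tested, since the table gives no window coordinates. Type I collagen, the main protein of bone and skin fibrils, was low: Col1a1 had an enrichment of 0.70 in H3K4me2 and 1.34 in H3K4me1, and Col1a2 0.66 in H3K4me2 and 1.79 in H3K4me1. The Col1a1 window held 5.87, 4.07 and 5.22 H3K4me2 CPM in WT, 5.71, 6.82 and 6.24 in MUT and 8.29, 7.74 and 5.87 in EV, against 45.9 and 42.0 in IgG. Col3a1, the fibrillar collagen of vessels and soft organs, lay at 0.36 in H3K4me2 and 0.88 in H3K4me1. The type V chain Col5a1, which takes part in starting fibrils, lay at -0.26 in H3K4me2 and -0.05 in H3K4me1. Col2a1, the main collagen of cartilage, lay at -0.12 in H3K4me2 and 0.46 in H3K4me1, and Col11a1, Col24a1, Col27a1 and Col5a3 between -0.26 and 0.05 in H3K4me2. The fibrillar median was 0.05 in H3K4me2 and 0.46 in H3K4me1.

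Both chains of type VIII, a network of the cornea and vessel walls, were marked with H3K4me1. Col8a1 (chromosome 16, 57624256 to 57754737) had an enrichment of 3.20, with CPM of 55.8, 37.2 and 38.5 in WT, 43.3, 31.0 and 36.9 in MUT and 46.9, 35.0 and 34.9 in EV. Col8a2 (chromosome 4, 126286794 to 126314330) had 2.01, and 0.52 in H3K4me2. Col7a1, the anchoring fibril that ties the epidermis to the dermis, had 1.90 in H3K4me1 and 0.21 in H3K4me2. Col10a1, the collagen of hypertrophic cartilage, had 0.53 in H3K4me1 and -0.16 in H3K4me2, and Col26a1 and Col28a1 had 0.49 and 0.44 in H3K4me1.

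Basement membrane type IV collagens were the lowest class, with medians of -0.34 in H3K4me2 and -0.02 in H3K4me1 over 6 genes. Col4a1 had 4.61, 2.44 and 1.87 H3K4me2 CPM in WT, 3.57, 3.78 and 5.36 in MUT and 4.04, 2.48 and 4.03 in EV, against 63.2 and 49.4 in IgG, an enrichment of -0.49 that 99.5% of windows exceeded. That rank rests on division by IgG. In H3K4me2 CPM the WT mean of Col4a1 was 2.98, above the silent-family medians of 1.42 to 1.71 in WT libraries. The type IV genes lie in head-to-head pairs and share reads, so their values are not independent. The starts of Col4a1 and Col4a2 are 21 bp apart, and the ratio of their counts ran from 0.946 to 1.06 over all libraries. For Col4a3 and Col4a4 the ratio ran from 0.903 to 1.04, and for Col4a5 and Col4a6, with starts 1343 bp apart, from 0.902 to 1.15. Type VI collagens, which form beaded filaments around cells, had medians of -0.20 in H3K4me2 and 0.21 in H3K4me1 over 6 genes, with Col6a5 highest at 0.49 in H3K4me2 and 0.93 in H3K4me1. The promoters of Col4a1 and Col4a2 hold 37 and 33 CpG in 300 bases, more than any of the 5 printed.

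The WT libraries were tested against IgG from the same cells. With column totals as library size, 0 of 44 collagen windows were higher in H3K4me2 than in IgG, where 35.8% of all windows tested were, by edgeR's quasi-likelihood F-test with Benjamini-Hochberg adjustment over all windows (3 against 2 libraries). Lower windows numbered 41, where 55.9% of all were. In H3K4me1 3 were higher (background 27.4%) and 39 lower (48.6%). Of the 3, Col17a1 had a log2 ratio of 2.06 (SE 0.198, adjusted p = 1.41e-05), Col18a1 0.78 (SE 0.158, adjusted p = 9.74e-04) and Col11a2 0.71 (SE 0.274, adjusted p = 0.0341). Without IgG replicate 2 the Col11a2 ratio was 0.38 (adjusted p = 0.308), and without WT replicate 2 0.58 (adjusted p = 0.0724), so its call was lost without either library.

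Column totals compare a window's share of each library, and the silent families lay below IgG on this scale. The median collagen ratio was -3.71 in H3K4me2, beside -3.76 in silent families and -1.96 over all windows, and -2.59 in H3K4me1, beside -3.10 and -0.47. The lowest collagen ratios were -4.31 at Col5a1, -4.21 at Col6a4, -4.19 at Col4a1 and -4.16 at Col4a2 in H3K4me2. In H3K4me1 they were -3.30 at Col4a2, -3.28 at Col4a1, -3.25 at Col5a1 and -3.22 at Col9a1. Scaled to the silent families instead, 8 collagen windows were higher in H3K4me2 (background 54.6%) and 13 in H3K4me1 (61.5%). In H3K4me2 these were Col23a1 (3.67), Col18a1 (3.54), Col14a1 (3.20), Col17a1 (3.05), Col11a2 (1.88), Col16a1 (1.66), Col8a1 (1.44) and Col1a2 (0.94). In H3K4me1 Col17a1 (4.70), Col18a1 (3.38), Col11a2 (3.26) and Col8a1 (2.95) led. Called lower than IgG on this scale were Col5a1 in H3K4me2 (-0.78, adjusted p = 0.0488, edgeR, background 0.461%) and 0 windows in H3K4me1 (2.96%). The median of the silent families themselves was -0.16 in H3K4me2 on this scale, and Col5a1 was not tested against them. The share of collagen windows called higher lay under that of all windows in both marks and both scalings.

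The balance of the marks at each start site was tested in 1 fit of all libraries. H3K4me2 was higher than H3K4me1 in 1 of 44 collagen windows (background 32.0%) and lower in 39 (43.6%). Col23a1 was the 1 higher window, with a log2 ratio of 0.63 (SE 0.100, adjusted p = 1.72e-05, edgeR). Col17a1 lay lowest at -2.31 (SE 0.119), followed by Col8a1 (-2.2), Col11a2 (-2.13) and Col7a1 (-2.01). Col14a1 did not pass, with -0.09 (adjusted p = 0.607). The count of lower windows depends on the scaling. The median ratio was -0.84 for collagens, -0.28 for all windows and -0.36 for silent families, and scaling to the silent families gave 2 higher (47.3%), Col23a1 and Col9a1, and 15 lower (22.6%), with medians of -0.22 for collagens and 0.36 for all windows. Col23a1 was then at 1.26, Col17a1 at -1.7, Col8a1 at -1.59, Col11a2 at -1.51 and Col7a1 at -1.37, so these 5 kept their side in both scalings.

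**Figure D2:**
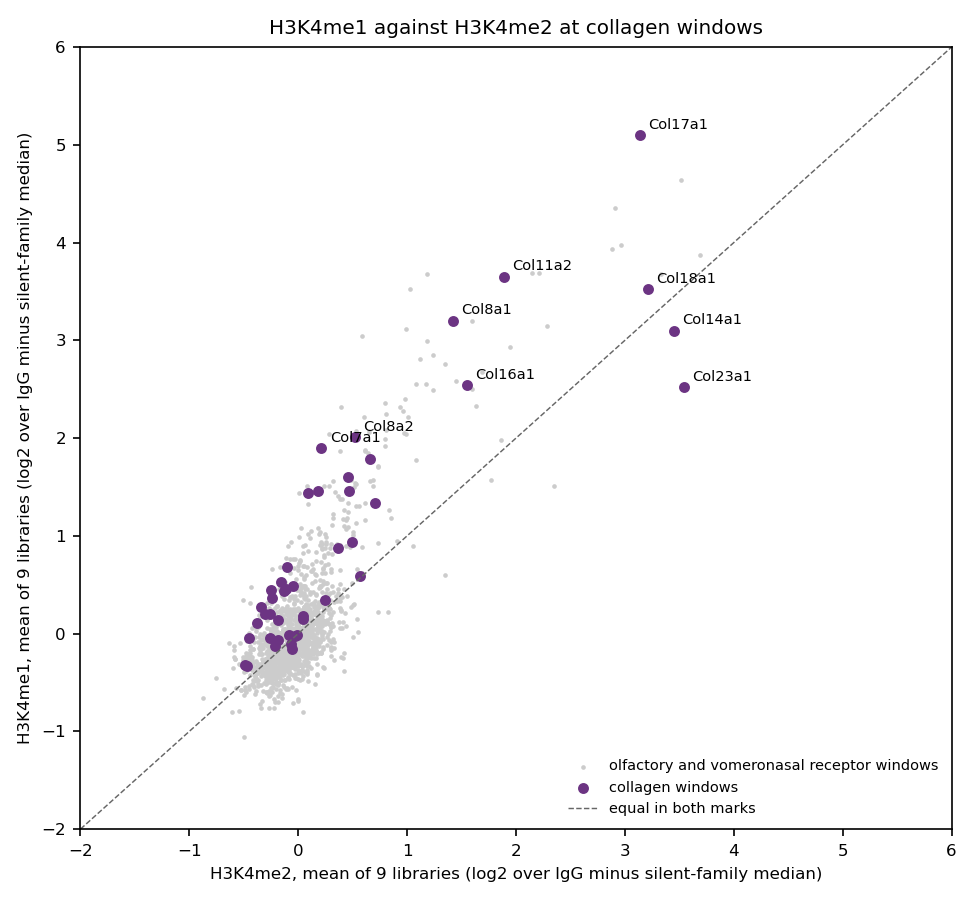
Mean enrichment over 9 libraries of H3K4me2 (horizontal axis) and H3K4me1 (vertical axis), both log2 over IgG minus the silent-family median, with collagen windows in purple and olfactory and vomeronasal receptor windows in grey. Col17a1 (3.14 and 5.10) lies far above the dashed line of equal values, Col23a1 (3.54 and 2.52) below it, and most collagen windows fall inside the grey cloud.

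Whether Snai1 changed the marks at collagen genes was asked by comparing constructs. In each of the 6 comparisons 0 of 44 collagen windows passed at an adjusted p of 0.05 (edgeR, all 3 constructs of a mark in the fit). The background was 0.00388% of windows for H3K4me2 of WT against EV and 0 in the others. Unadjusted p under 0.05 were found at 3, 0 and 4 of the 44 collagen windows in H3K4me2 for WT against EV, MUT against EV and WT against MUT, in that order, where 7.32, 4.95 and 9.90% of all windows had one. In H3K4me1 there were 1, 2 and 3, where 2.88, 1.61 and 5.24% of all did. DESeq2 also called 0 collagen windows in each of the 6 comparisons.

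The smallest p in H3K4me2 between WT and EV belonged to Col18a1. It had 36.0, 43.1 and 44.4 CPM in WT, 42.9, 34.2 and 34.1 in MUT and 40.0, 21.7 and 15.9 in EV. EV replicates 2 and 3 were low, and EV replicate 1 lay among the other constructs, so the groups overlap. The log2 fold change of WT over EV was 0.72 (SE 0.278, adjusted p = 0.557), with -0.15 in replicate 1 and 1.31 in replicates 2 and 3. The median of chromosome 10, where the gene lies, was -0.03 in replicates 2 and 3. Without EV replicate 1 Col18a1 passed for WT against EV (1.21, adjusted p = 0.00639) and for MUT against EV (0.99, adjusted p = 0.0342), in fits where construct and replicate set are partly confounded and 719 and 620 of all windows passed. H3K4me1 of Col18a1 differed by 0.34 for WT over EV (adjusted p = 1.00), with -0.22 in replicate 1 and 0.97 in replicates 2 and 3.

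Col23a1 had H3K4me2 log2 fold changes of 0.36 for WT over EV (SE 0.144, adjusted p = 0.586), with 0.16 in replicate 1 and 0.45 in replicates 2 and 3. After TMM scaling all 3 WT values lay above all 3 EV values. On column totals WT replicate 3 (47.2 CPM) lay just under EV replicate 1 (47.7 CPM). Lower in all WT libraries than in all EV libraries on the TMM scale were Col20a1 (-0.55), Col6a2 (-0.46), Col9a2 (-0.40) and Col11a1 (-0.33). These 5 non-overlapping windows of 44 compare with 13.0% of all windows. Col20a1, a FACIT collagen, had 5.36, 4.48 and 3.94 H3K4me2 CPM in WT, 4.95, 8.11 and 6.63 in MUT and 7.07, 7.34 and 6.90 in EV, so all WT values were under all EV values. At Col1a1 the difference of WT over EV was -0.47, with -0.50 in replicate 1 and -0.46 in replicates 2 and 3, and the groups touched.

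In H3K4me2 of MUT over EV the smallest p belonged to Col5a1 (0.66), Col4a4 (0.45), Col4a3 (0.44) and Col8a2 (0.54), all with adjusted p = 0.952. On the TMM scale the head-to-head pair Col4a3 and Col4a4 lay higher in every MUT than in every EV library, and Col9a2 (-0.42) lower, 3 windows of 44 where 6.88% of all did not overlap. On column totals Col9a2 overlapped, with 5.81 CPM in MUT replicate 2 against 5.62 CPM in EV replicate 1. Col4a3 held 4.61, 3.26 and 3.74 CPM in WT, 4.51, 5.81 and 5.56 in MUT and 3.82, 3.97 and 3.68 in EV, and Col4a4 4.56, 3.15 and 3.94 in WT, 4.51, 6.08 and 5.56 in MUT and 3.75, 3.97 and 3.91 in EV. Col8a2 held 4.56, 2.75 and 3.45 CPM in WT, 4.07, 8.20 and 6.63 in MUT and 3.75, 3.87 and 5.06 in EV, with MUT replicates 2 and 3 high.

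In H3K4me2 of WT against MUT the smallest p belonged to Col5a1. Its window held 3.30, 2.54 and 1.38 CPM in WT, 3.30, 6.91 and 6.82 in MUT and 3.24, 3.17 and 4.03 in EV. MUT replicates 2 and 3 were high, and MUT replicate 1 was level with the other constructs. The log2 fold change of WT over MUT was -1.07 (SE 0.319, adjusted p = 0.503), with -0.08 in replicate 1 and -1.63 in replicates 2 and 3, where the median of chromosome 2 was -0.28. The next smallest p belonged to Col8a2 (-0.68), Col6a4 (-0.62) and Col11a1 (-0.61). Col6a4 held 2.85, 1.73 and 1.87 CPM in WT, 2.64, 3.78 and 4.58 in MUT and 2.88, 2.48 and 2.99 in EV. Col11a1 held 2.85, 2.65 and 2.76 CPM in WT, 2.75, 5.16 and 5.85 in MUT and 2.96, 3.57 and 4.49 in EV. In both, MUT replicate 1 lay with WT and MUT replicates 2 and 3 lay above every WT library. On the TMM scale Col5a1, Col11a1, Col5a3, Col4a4, Col4a3 and Col1a1 lay lower in every WT than in every MUT library, and Col16a1 and Col6a5 higher. These were 8 windows of 44, where 9.21% of all did not overlap, and Col4a4 and Col4a3 share reads. On column totals Col11a1 overlapped, with 2.85 CPM in WT replicate 1 against 2.75 CPM in MUT replicate 1. Col5a3, Col4a4, Col4a3 and Col1a1 overlapped as well, and Col5a1 was level at 3.30 CPM in replicate 1 of both. Without MUT replicate 1 Col5a1 (-1.29), Col8a2 (-0.85), Col11a1 (-0.82), Col6a6 (-0.77) and Col3a1 (-0.75) passed with adjusted p from 0.0251 to 0.0427, among up to 4289 of all windows. The collagen median of WT over MUT was 0.11 in replicate 1 and -0.55 in replicates 2 and 3, beside 0.25 and -0.64 in the silent families, and the part of that shift in these values was not tested.

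In H3K4me1 of MUT against EV and of WT against MUT the smallest p belonged to Col4a5 and Col4a6, a head-to-head pair on the X chromosome that codes for basement membrane chains. The Col4a5 window held 4.59, 3.96 and 5.00 CPM in WT, 1.7, 2.97 and 2.72 in MUT and 4.24, 5.08 and 6.59 in EV. Col4a6, whose window overlaps it, held 4.85, 3.56 and 5.18 CPM in WT, 1.82, 2.79 and 2.72 in MUT and 4.38, 5.46 and 7.30 in EV. Every MUT library lay below every WT and EV library in both windows. For MUT over EV the log2 fold changes were -1.09 (SE 0.310) and -1.19 (SE 0.314), both with adjusted p = 1.00 by edgeR over 25728 windows. For WT over MUT they were 0.94 (SE 0.297) and 0.95 (SE 0.302), both with adjusted p = 0.847. Both sets of replicates pointed the same way. For MUT over EV replicate 1 gave -1.18 at Col4a5 and -1.14 at Col4a6, and replicates 2 and 3 gave -1.06 and -1.24, while the X chromosome median was -0.04 and 0.01. The windows were at the level of silent genes, with IgG of 23.5 and 35.0 CPM at Col4a5, and the pair counts as 1 observation. H3K4me2 of Col4a5 differed by 0.11 for MUT over EV (adjusted p = 0.976).

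Col5a2, a type V chain that limits fibril width, had the smallest p in H3K4me1 of WT over EV. Its window held 28.6, 37.0 and 36.8 CPM in WT, 23.3, 21.6 and 18.6 in MUT and 27.7, 12.8 and 13.2 in EV. All WT libraries lay above all MUT libraries, and EV replicate 1 lay close to WT replicate 1 while EV replicates 2 and 3 were low. The log2 fold change of WT over EV was 0.76 (SE 0.332, adjusted p = 1.00), with -0.02 in replicate 1 and 1.59 in replicates 2 and 3, and that of WT over MUT was 0.70 (SE 0.295, adjusted p = 0.913). On the TMM scale, windows without overlap numbered 6 for WT against EV (background 14.0%), 6 for MUT against EV (10.5%) and 3 for WT against MUT (8.64%), with EV as 2 samples. The 3 of WT against MUT were Col5a2, Col4a5 and Col4a6. MUT against EV had Col27a1 higher in MUT (0.25) and Col4a6, Col4a5, Col24a1, Col25a1 and Col6a6 lower. On column totals Col27a1 overlapped, with 3.86 CPM in MUT replicate 1 against 4.71 CPM in EV replicate 2. On the TMM scale all 6 of WT against EV were lower in WT, namely Col24a1, Col5a3, Col11a1, Col28a1, Col1a1 and Col2a1, with log2 fold changes from -0.56 to -0.24 and adjusted p = 1.00. On column totals Col1a1 overlapped, with 14.4 CPM in WT replicate 1 against 13.8 CPM in EV replicate 1, and so did Col2a1, with 7.78 CPM in WT replicate 1 against 7.48 CPM in EV replicate 1. Col24a1 held 6.25, 3.17 and 4.44 CPM in WT, 4.54, 4.65 and 4.70 in MUT and 7.06, 7.34 and 6.59 in EV. Col5a3 held 7.27, 6.73 and 4.44 CPM in WT, 8.85, 8.92 and 6.93 in MUT and 7.62, 9.98 and 11.6 in EV. EV was the highest construct on average at both. Col7a1, whose H3K4me1 CPM were 22.2, 18.2 and 18.1 in WT, 15.9, 23.6 and 19.3 in MUT and 19.1, 33.7 and 30.8 in EV, differed by -0.37 for WT over EV and -0.40 for MUT over EV. Col28a1 held 3.57, 3.17 and 4.07 CPM in WT, 2.84, 7.62 and 9.15 in MUT and 4.52, 7.53 and 4.63 in EV, and differed by -0.75 for WT over MUT (adjusted p = 0.982).

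**Figure D3:**
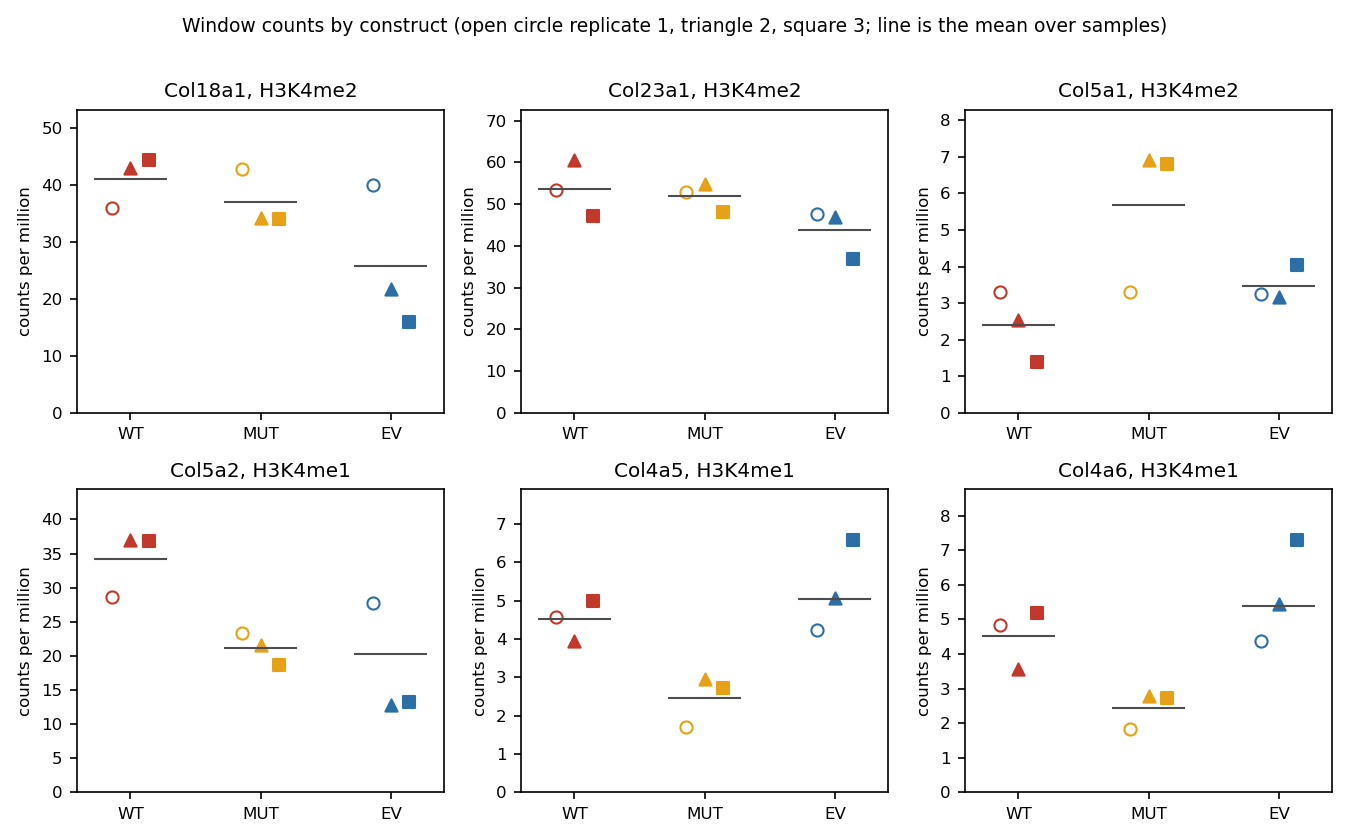
CPM on column totals in each library for the collagen windows with the smallest p, H3K4me2 in the upper row (Col18a1, Col23a1, Col5a1) and H3K4me1 in the lower row (Col5a2, Col4a5, Col4a6), with WT, MUT and EV from left to right. Open circles are replicate 1, triangles replicate 2 and squares replicate 3, and lines are means over samples, with EV H3K4me1 replicates 2 and 3 as 1 sample. EV replicate 1 of Col18a1 (40.0) and MUT replicate 1 of Col5a1 (3.30) lie apart from their own replicates 2 and 3.

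Across the family the median differences between constructs were small. The collagen median log2 fold change in H3K4me2 was -0.18 for WT over EV, 0.11 for MUT over EV and -0.29 for WT over MUT, beside -0.14, 0.22 and -0.36 in silent families and values near 0 (-0.01, 0.03 and -0.04) over all windows. In H3K4me1 it was -0.11, -0.05 and -0.01, beside -0.04, 0.05 and -0.10 in silent families, in the same order of comparisons. These comparisons share libraries and are not independent of each other. Scaling to the silent families shifted the median of all windows in H3K4me2 to 0.12, -0.13 and 0.25 and the collagen medians to -0.07, -0.08 and 0.03, so the sign of MUT over EV and of WT over MUT depends on the scaling.

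Replicate 1 and replicates 2 and 3 often differed in sign. For H3K4me2 of WT over EV 20 of 44 collagen windows had the same sign in both sets (49.6% of all windows did), for MUT over EV 16 (34%) and for WT over MUT 14 (27.2%). For H3K4me1 the numbers were 16 (41.4%), 25 (43.0%) and 8 (32.9%). For H3K4me2 of WT over EV the collagen median was -0.03 in replicate 1 and -0.37 in replicates 2 and 3, beside -0.01 and -0.22 in the silent families. For MUT over EV it was -0.19 in replicate 1 and 0.34 in replicates 2 and 3, beside -0.31 and 0.42. In H3K4me1 of WT over MUT it was 0.27 in replicate 1 and -0.11 in replicates 2 and 3, beside 0.56 and -0.39. No collagen window passed at this spread between libraries, which does not show that the windows were unchanged.

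**Figure D4:**
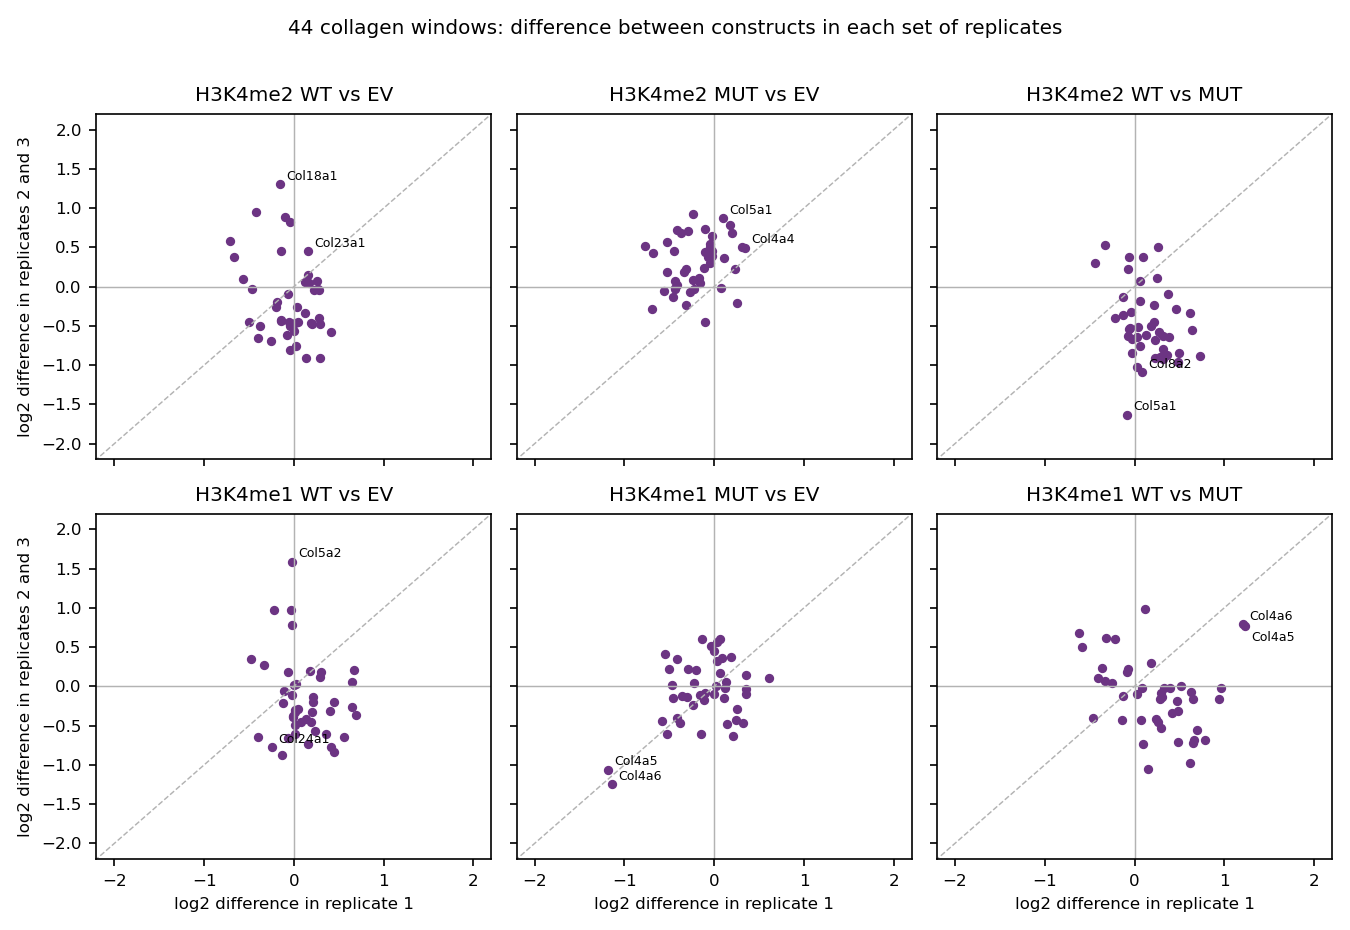
Log2 difference between constructs at 44 collagen windows in replicate 1 (horizontal axis) and in replicates 2 and 3 (vertical axis), 1 panel per mark and comparison, with the dashed line at equal values. The collagen windows with the smallest p are named. Col18a1 (-0.15 and 1.31) and Col5a1 in WT against MUT (-0.08 and -1.63) differ in replicates 2 and 3 and little in replicate 1, while Col4a5 and Col4a6 lie near the dashed line in both comparisons with MUT.

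Snai1 peaks near collagen genes were few. Of the 44 genes 1 (2.27%) had a WT peak within 5 kb of either end of the gene, where 7.81% of all 25173 genes with coordinates did, 3 (6.82%) had a MUT peak (28.4%) and 0 had an EV peak (0.493%). The lists hold 2929 peaks for WT, 12037 for MUT and 137 for EV. Among 1482 receptor genes WT had a peak at 1 and MUT at 5. Each list pools technical replicates, so these counts have no replicate check and carry no test. Fold values are the authors' enrichment of a peak over local background, as deposited.

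Col11a2 had a WT peak of 4.39-fold at chr17:34041699-34041898, inside the gene with its summit 2652 bp from the start, and a MUT peak of 2.72-fold over the same place at chr17:34041619-34041867. MUT had 2 more, of 4.60-fold inside the gene (chr17:34057542-34057923) and 4.70-fold at chr17:34068063-34068425, 1578 bp beyond its end. H3K4me2 at Col11a2 was 12.7, 22.4 and 25.1 CPM in WT, 16.3, 20.5 and 22.9 in MUT and 20.2, 20.4 and 18.7 in EV, and the groups overlap.

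At Col23a1 the MUT peaks were 6.13-fold (chr11:51584517-51584810) and 5.46-fold (chr11:51584877-51585111). They lie beyond the gene's end, 294730 and 295059 bp from its start, and the first covers the start of the neighbour Phykpl, a metabolic enzyme gene. The Phykpl window carried H3K4me2 of 80.3 ± 6.32 CPM in WT, 84.6 ± 3.56 in MUT and 86.1 ± 1.02 in EV (SD, n = 3 each). At Col4a3 the MUT peak of 8.03-fold (chr1:82724623-82724969) lies 2739 bp beyond the annotated gene and covers the start of Mff, a mitochondrial fission gene. The second Col23a1 peak has its summit 198 bp from the start of Phykpl.

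Inside genes or within 5 kb of them, peaks were found at 3 collagen genes in WT (background 10.2%), 5 in MUT (33.0%) and 0 in EV. WT adds Col15a1, with 5.29-fold at chr4:47293755-47294054 and 85911 bp from its start, and Col23a1, with 5.50-fold at chr11:51549328-51549583 and 259560 bp from its start. MUT adds Col15a1, with 9.74-, 4.52- and 6.71-fold, and Col17a1, with 4.67-fold at chr19:47654952-47655295 and 36923 bp from its start. The 4.52- and 6.71-fold peaks have summits 94704 and 95532 bp from the Col15a1 start. They lie 449 and 379 bp from the start of another gene, Gm52732. At Col15a1 the WT peak and the strongest MUT peak (chr4:47293710-47294081) overlap.

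**Figure D5:**
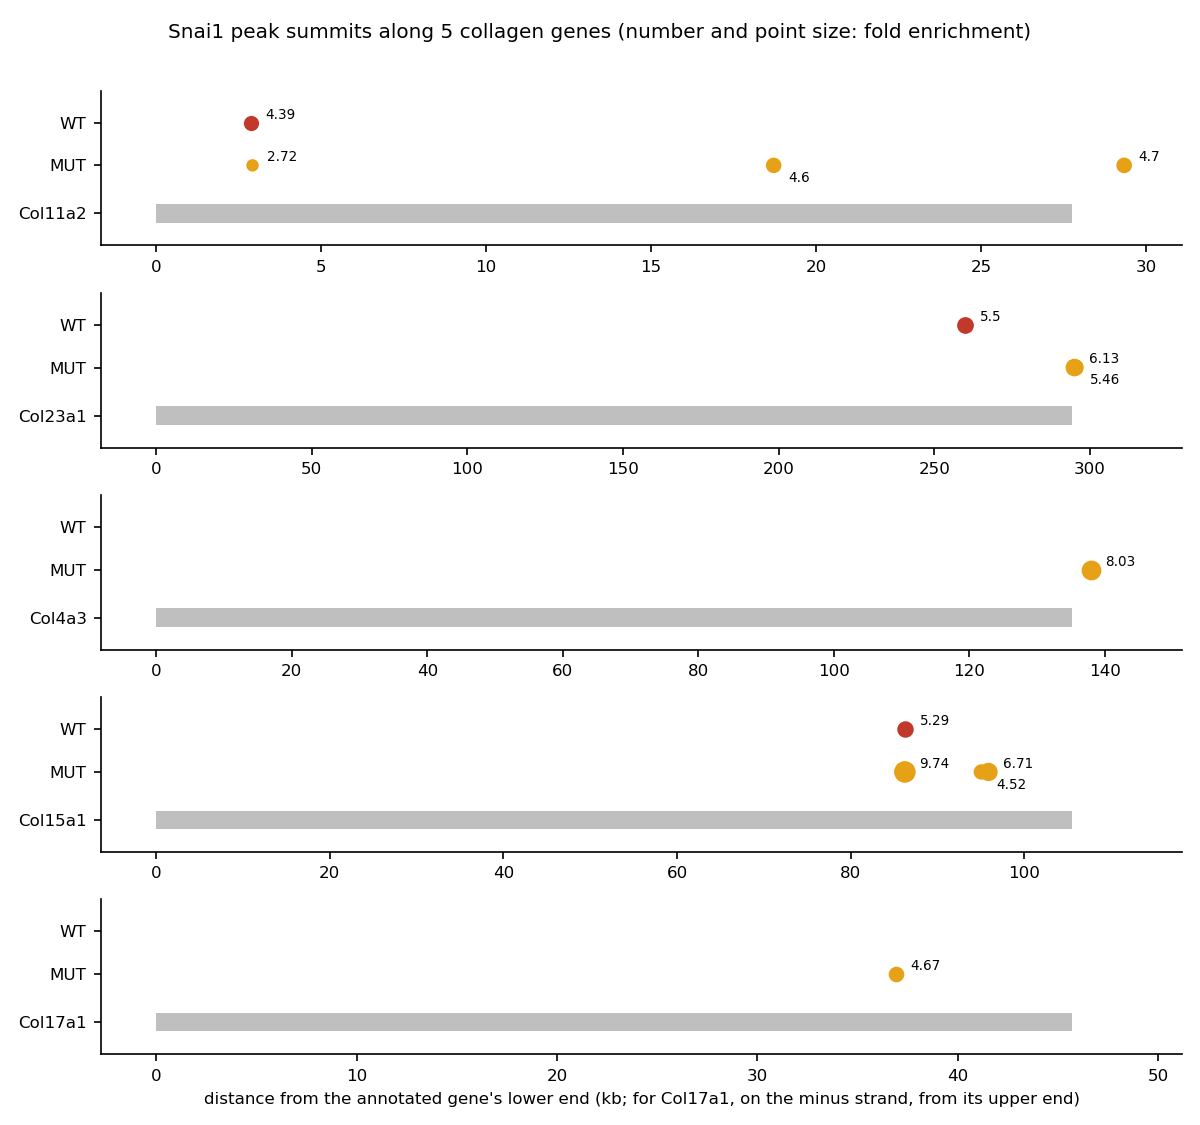
Snai1 peak summits along the 5 collagen genes with a peak inside or within 5 kb, WT above MUT, with the grey bar the annotated gene and the horizontal axis the distance in kb from the gene's lower end (for Col17a1, on the minus strand, from its upper end). Point size and the printed number are the deposited fold enrichment, and EV has no peak here. The peaks of Col11a2 of 4.39- and 2.72-fold are the ones nearest to a collagen start, and those of Col23a1 and Col4a3 in MUT lie past the gene's far end.

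Genes that make, bind or cut collagen are given for comparison with the collagens themselves. With silent-family scaling in WT over IgG, 18 of 28 genes for collagen synthesis and processing were higher in each mark, with examples in the prolyl hydroxylase subunit genes P4hb (mean H3K4me2 enrichment 4.64) and P4ha1 (4.51) and the lysyl hydroxylase gene Plod1 (4.92). The collagen chaperone gene Serpinh1 (-0.06) and P4ha2 (0.03) were at the silent level. Of 12 collagen receptor genes 6 were higher in H3K4me2 and 8 in H3K4me1, among them the integrin gene Itgb1 (4.63) and the adhesion receptor gene Adgrg1 (5.00). Of 8 collagenase and gelatinase genes 3 were higher in each mark, with Mmp14 at 3.89 and Mmp9 at 3.40. Of 5 crosslinking genes 4 had enough reads and 1, Loxl3, was higher, with Lox at 0.10. The background was 54.6% of windows in H3K4me2 and 61.5% in H3K4me1.

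Markers of mesenchymal cells, the usual source of fibrillar collagens, were mixed. Of 17 fibroblast and mesenchymal markers 6 were higher than IgG in H3K4me2 and 7 in H3K4me1 with silent-family scaling, and their median enrichment was 0.17 in H3K4me2 and 0.91 in H3K4me1. The matrix genes Dcn (-0.10) and Fn1 (0.17) and the mesenchymal factor gene Twist1 (-0.17) stood at the silent level in H3K4me2, while Vim (5.12), which blood cells also express, and the receptor gene Pdgfrb (4.66) were high. Endothelial markers had 4 of 7 higher in H3K4me2 and 5 of 7 in H3K4me1. With column totals against IgG the numbers higher and lower in H3K4me2 were 2 and 14 of the 17 mesenchymal markers, 13 and 2 of the 15 blood progenitor markers and 13 and 12 of the 28 synthesis genes, where 35.8% of all windows were higher and 55.9% lower. In the 6 construct comparisons 0 members of these lists passed.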

How the data were processed

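H3K4me2, H3K4me1 and IgG ChIP-seq libraries of HPC7 cells were deposited as a table of whole-number counts per gene, over windows of 5 kb around start sites, made by the authors with Subread and featureCounts on GRCm38 (mm10), per the submitters' processing notes. Versions are not given in the sources used here, and the table holds no window coordinates. Snai1 peaks were deposited as 1 list per construct, from 4 technical replicates with input as the labels' protocols describe, called with MACS2 per the submitters' processing notes. Each peak carries the authors' fold enrichment (a ratio) and −log10 q as deposited. Methylation and Snai1 libraries were made with different library protocols, per the labels' protocols, and were not compared by level.

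Of 27095 rows 93.0% had a symbol in RefSeq, and 50 repeated rows and 20 empty rows were left out, none of them a collagen. Counts were tested with edgeR 4.0.16 (R 4.3.3) by the quasi-likelihood F-test, with TMM factors and filterByExpr between constructs and column totals and at least 10 counts over 5 libraries against IgG. P-values were Benjamini-Hochberg adjusted over all windows, with 0.05 as the threshold. EV H3K4me1 replicates 2 and 3, which differed by less than counting error, were summed. Enrichment used a prior count of 0.5 and windows with at least 20 IgG counts. DESeq2 1.42.0, other scalings, no filter, a batch term, a replicate block and leaving out each library were tried, and the fits were tested on simulated data. For WT against EV these recovered 23% of 1.5-fold changes in H3K4me2 and 7.5% in H3K4me1. Of 2-fold changes they recovered 94% and 84.5%. The changed windows in the simulation had a minimum mean count, and all had a fixed spread. It held no split between replicate 1 and replicates 2 and 3, which the real libraries show. These percentages therefore do not give the recovery at collagen windows, which was not measured separately. Python 3.11.15 with pandas 2.3.3 was used for the rest.

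Same-numbered libraries deviated together in WT and EV (r of 0.20 to 0.34 in H3K4me2 and 0.17 to 0.30 in H3K4me1) and in MUT and EV (0.17 to 0.38 and 0.41 to 0.59). In WT and MUT the 6 values of r ran from -0.22 to 0.26, and 3 were below 0. The main fits held no term for such pairs, so the fold changes and p-values given between constructs are unpaired. Pairing entered only in the alternative fits with a replicate block or a batch term.

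The windows named were the 4 collagens with the smallest p in each construct comparison, those called higher than IgG (up to 8) and the 4 lowest, those with a peak near, and pairs that share a promoter. Other collagens, those named for enrichment or non-overlapping groups, and the examples from the lists were chosen after their values were seen. The collagen members and all gene lists were chosen with earlier results of these data known. Peaks within 5 kb of either end of the RefSeq gene were counted as near.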

Additional observations from a re-analysis of the deposited data

How the results depend on the processing

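Between constructs, leaving out 1 library gave 0 to 1 collagen windows passing in H3K4me2 of WT against EV, 0 to 1 in MUT against EV and 0 to 5 in WT against MUT, and 0 under every other alternative run. The replicate block changed no call of a collagen window between constructs (0 in all 6 comparisons). Over IgG in WT, TMM factors gave 3 higher H3K4me2 windows and silent-family scaling 8, with 1 lower. In H3K4me1 TMM gave 5 higher and silent-family scaling 13, with 0 lower. H3K4me2 over H3K4me1 had 17 collagen windows called with silent-family scaling. Near peaks within 1 kb numbered 0 for WT and 1 for MUT, inside or within 5 kb 3 for WT and 5 for MUT, and at a −log10 q of at least 10 WT had 0. With silent-family scaling 17 collagen windows had a positive H3K4me2 ratio over IgG and 23 a positive H3K4me1 ratio, against 1 and 5 with column totals. Among the windows named by the rule, signs turned round with silent-family scaling for H3K4me2 over IgG at Col11a2 (1.88), Col14a1 (3.20), Col16a1 (1.66), Col17a1 (3.05), Col18a1 (3.54), Col1a2 (0.94) and Col8a1 (1.44), and with TMM at Col14a1 (0.65), Col17a1 (0.46) and Col18a1 (0.97). They did so for H3K4me1 over IgG at Col16a1 (2.04), Col1a2 (1.73), Col20a1 (1.02), Col23a1 (2.14, and 0.0687 with TMM), Col5a2 (1.84), Col7a1 (1.30), Col8a2 (1.46) and Col9a3 (0.98). Leaving out 1 library gave -0.092 to 0.0631 for Col18a1 in H3K4me2 and -0.154 to 0.202 for Col14a1 in H3K4me1. H3K4me2 over H3K4me1 at Col14a1 was 0.52 with silent-family scaling, 0.11 with DESeq2, 0.0308 with the replicate block and -0.0712 to 0.123 without 1 replicate. The scalings set the zero of each comparison, and no other cause was tested. Enrichment over the silent families was chosen after seeing the data. The lowest collagen count in a methylation library was 10, at Col4a6, and the effect of depth was not tested.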
